A study of Mus musculus with 3 samples.

Results

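The genes Ppp1r14c, Magea13, Gprc5c, Cd55, Myo18b and Ctrb1 had far fewer reads in a Drp1 knockout library, and in a library of such cells given Drp1 back, than in wild-type cells. The first 5 were nearly silent there, while Ctrb1 kept some reads. They are 6 of 46316 gene symbols in the tables. They were selected on these same read counts, for a large loss in the knockout library with little return in the FLAG-Drp1 library, and the rule has no fixed cut-off. Those counts are therefore a description, and nothing is tested with them.

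The libraries came from C2C12 cells, a line of mouse myoblasts, the precursors that fuse into muscle fibres, under myogenic differentiation for 4 days. The 3 groups, with 1 library each, were wild-type cells (WT), Drp1 knockout cells (KO) and Drp1 knockout cells transiently expressing FLAG-Drp1 (rescue), so the rescue cells carry the knockout as well. Drp1 is the GTPase that divides mitochondria. The sources used here do not say how the knockout was made, whether the line is 1 clone, or which promoter drives FLAG-Drp1. Without replicates each value describes these libraries alone, and the knockout cannot be told apart from any other difference between the cultures.

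The genes have unrelated roles. Ppp1r14c encodes KEPI, an inhibitor of protein phosphatase 1 that becomes potent once protein kinase C phosphorylates it. Gprc5c is an orphan receptor of the class C family, and Cd55 is decay-accelerating factor, a surface protein that shields cells from complement by taking apart the convertase enzymes. Myo18b is an unconventional myosin of striated muscle that is needed to build sarcomeres. Ctrb1 is chymotrypsinogen, a digestive protease precursor of the pancreas, and Magea13 belongs to the MAGE genes, many of which are normally active mainly in the germ line and bind E3 ubiquitin ligases.

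The 3 libraries held 13894114 (WT), 13790417 (KO) and 13925296 (rescue) gene counts. Dnm1l, the gene of Drp1, had 1823 counts in WT against 1284 in KO and 1481 in rescue, so its RNA was present in all 3. All 10 myotube markers were detected in every library, summing to 220179 counts in WT against 224192 in KO and 270972 in rescue. The 4 myoblast markers summed to 12079, 4371 and 5066 counts, lower in KO and rescue. Most of that sum was the cadherin gene Cdh15 (9651, 2756 and 3318). Myf5 had 949, 617 and 570 and Myod1 1476, 990 and 1174, both within 2-fold of WT. Pax7 went the other way on few reads, with 3, 8 and 4. The part of these markers in the results below was not tested. Adiponectin (Adipoq), the leukocyte gene Ptprc, Pecam1 of endothelium and Rbfox3 of nerve had 0 counts in all 3. Other markers of these cell types were detected. Tubb3 of nerve had 1050, 451 and 574 counts and Cd14 of macrophages 103, 113 and 109. Tek of endothelium had 16, 7 and 11 and Fabp4 of adipocytes 0, 5 and 3. The epithelial markers Cdh1 (12, 0 and 3), Krt8 (3, 5 and 13) and Epcam (0, 0 and 1) had few reads. The bone and cartilage markers summed to 4 counts in each library. In bulk RNA, fewer cells of a type and less RNA per cell cannot be told apart.

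Among the signalling genes, Ppp1r14c had 349 counts in WT against 0 in KO and 0 in rescue. At this depth 0 counts allow up to 3, or 0.217 CPM in KO and 0.218 in rescue (CPM is the count relative to library size, here with edgeR TMM factors), against 24.9 CPM in WT. Against that floor of 3 counts per library, Ppp1r14c was at least 114-fold lower in KO and at least 114-fold lower in rescue. Ppp1r14c was the one of the 6 with no read in either library.

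Gprc5c had 498 counts in WT against 1 in KO and 4 in rescue. Its log2 ratio to WT was -8.35 in KO (95% counting interval -14.24 to -6.45) and -6.76 in rescue (-8.81 to -5.57). These exact conditional (Clopper-Pearson) intervals cover counting error only, because 1 library per group gives no spread between cultures. Reads that carry no molecular identifier cannot be counted as separate molecules, so even the counting error may be wider than shown. The 4 rescue counts were 4.01-fold above the 1 KO count, with an interval from 0.397-fold to 197-fold.

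Cd55 had 238 counts in WT against 1 in KO and 0 in rescue. The log2 ratio of KO to WT was -7.29 (interval -13.18 to -5.38), and rescue was at least 77.8-fold below WT. Here rescue lay on the far side of KO from WT, by 1 read.

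Magea13 had 267 counts in WT against 0 in KO and 1 in rescue. It was at least 87.4-fold lower in KO, and its log2 ratio of rescue to WT was -7.45 (interval -13.34 to -5.54). Like Ppp1r14c, Gprc5c and Cd55, its counts in KO and in rescue were each under 1% of its WT count.

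Myo18b and Ctrb1 kept a measurable remainder. Myo18b, the muscle myosin, had 574 counts in WT against 10 in KO and 16 in rescue, or 40.9, 0.725 and 1.16 CPM. KO held 1.77% of the WT level (interval 0.846% to 3.28%) and rescue 2.84% (1.61% to 4.66%), 56.4-fold and 35.2-fold below WT. Rescue was 1.60-fold above KO with an interval of 0.684-fold to 3.95-fold, and 1.09% of the gap between KO and WT was returned.

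Ctrb1 had the most reads of the 6, with 661 counts in WT against 31 in KO and 46 in rescue, or 47.1, 2.25 and 3.34 CPM. KO held 4.77% of the WT level (interval 3.22% to 6.84%) and rescue 7.10% (5.14% to 9.58%), 21.0-fold and 14.1-fold below WT. Rescue was 1.49-fold above KO (interval 0.923-fold to 2.43-fold), and 2.44% of the gap was returned. Among the 6, 4 had more counts in rescue than in KO. Since little return was part of the choice, the closeness of rescue to KO is no separate result. Over all genes tested, 1.3% were at least 2-fold higher in rescue than in KO and 0.575% at least 2-fold lower.

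**Figure D1:**
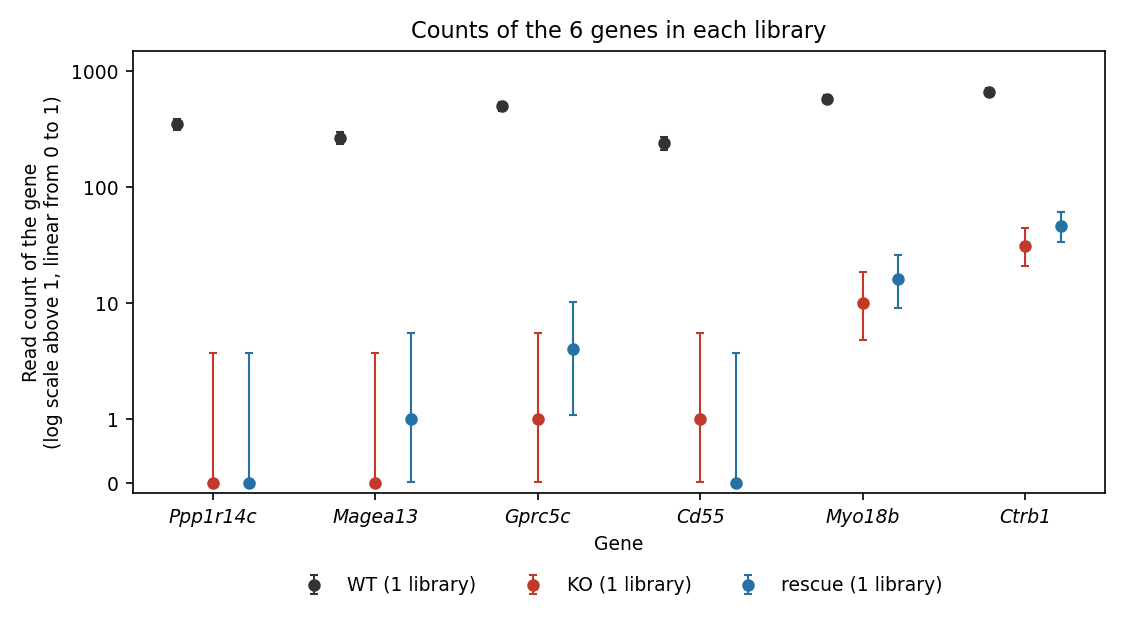
Read counts of the 6 genes (x axis) in the WT, KO and rescue libraries, on a y axis that is logarithmic above 1 and linear below it; points are single libraries and bars are exact 95% Poisson intervals (counting error only). WT counts run from 238 to 661, while KO and rescue counts run from 0 to 46 and their intervals overlap within each gene.

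Together the 6 genes had 2587 counts in WT against 43 in KO and 67 in rescue, and most of the remainder was Ctrb1. Per length, their WT levels were moderate, by the TPM (a count corrected for row length and library size) deposited by the authors for the row used. Myo18b had 2.58 TPM, Cd55 3.57, Gprc5c 4.59, Ppp1r14c 4.82, Magea13 6.45 and Ctrb1 28.3. Among the 13381 genes with a mean of 1 CPM or more over the libraries, these levels ran from percentile 34.8 (Myo18b) to 89.1 (Ctrb1), so genes around the middle of the range as well as a high one were included. Each level comes from 1 library, so whether neighbouring levels in this order differ cannot be judged. All 6 passed that filter, but on the mean of KO and rescue alone 1 of 6, Ctrb1, would have passed. The others were kept through WT.

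All 6 lay at least 10-fold below WT in both KO and rescue. Of the 13381 genes tested, 37 (0.277%) did so. At 2-fold the shares over all genes were 4.07% lower in KO, 3.06% lower in rescue and 2.32% lower in both. Since this contrast chose the 6, nothing is read from the difference. Both comparisons share the WT library, so a high WT value alone would lower both ratios.

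**Figure D2:**
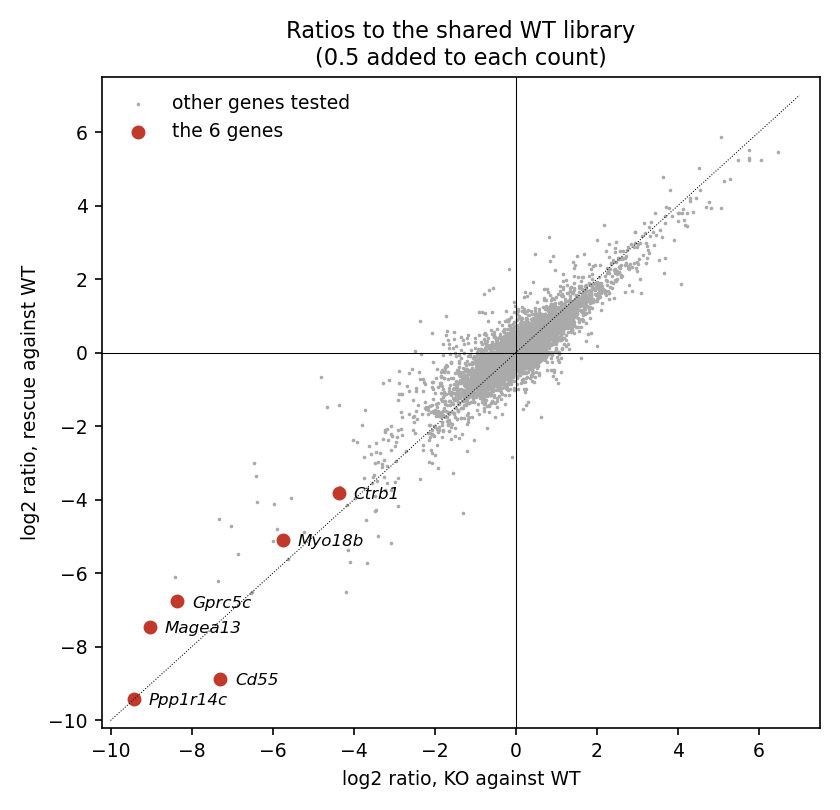
Log2 ratio to WT of the KO library (x axis) and of the rescue library (y axis) for every gene tested (grey points) and the 6 genes (red, named), with the dotted line at equal ratios; both axes share the WT library and 0.5 was added to each count. The 6 genes run from Ctrb1 (-4.37 and -3.80) to Ppp1r14c (-9.42 and -9.42), whose values are set by the added 0.5 because both counts are 0.

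The loss covered every transcript row of each gene. The tables list 7 rows for Ppp1r14c, 8 for Gprc5c, 5 for Cd55, 2 for Myo18b and 1 each for Magea13 and Ctrb1. The rows of a gene largely count the same reads. In KO, all rows of Ppp1r14c had 0 counts, all of Gprc5c 1, all of Cd55 1 and both of Myo18b 10. In rescue the corresponding counts were 0, 4, 0 and 16. In WT the rows differed more: Ppp1r14c ran from 110 to 349, Cd55 from 132 to 238 and Gprc5c from 309 to 498. With equal counts in all rows of a gene, KO and rescue cannot show whether any transcript form was retained.

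The sources used here do not state the treatment of multi-mapping reads or of strand. Of the 50-base words in the GENCODE M21 transcripts of Magea13 and Ctrb1, 0% occurred in transcripts of another gene on either strand. The share was 0.147% for Gprc5c, 1.49% for Myo18b, 9.12% for Cd55 and 27.5% for Ppp1r14c. For Cd55 most shared words belonged to its close copy Cd55b, which had 0 counts in all 3 libraries, and for Ppp1r14c to the noncoding gene Gm26752, with 2 counts in WT and 0 in KO and rescue. The counts of Cd55 and Ppp1r14c are uncertain to that extent. By RefSeq, Cd55 overlaps Cd55os and Myo18b overlaps 1700095B10Rik, both with 0 counts in all 3 libraries, and Ctrb1 overlaps Mir7076, which had 1 count in WT and 0 in the others.

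Promoter sequence was not used in the choice. The 250 bases before the RefSeq start site are shown because they are the stretch that could be compared between genes lost together. The promoter set used here (GRCm38.p6, an older build than the GRCm39 of the tables) held them for 4 of 6 genes. It had no entry for Gprc5c and Myo18b, although RefSeq placed all 6 genes. Magea13 was matched through its accession, under the older name 4930550L24Rik. Capitals mark E-boxes, the motif CANNTG that MyoD, myogenin and other basic helix-loop-helix factors bind, and the last base of each line lies just before the start site.
Ppp1r14c, chr10:3365900-3366149, plus strand: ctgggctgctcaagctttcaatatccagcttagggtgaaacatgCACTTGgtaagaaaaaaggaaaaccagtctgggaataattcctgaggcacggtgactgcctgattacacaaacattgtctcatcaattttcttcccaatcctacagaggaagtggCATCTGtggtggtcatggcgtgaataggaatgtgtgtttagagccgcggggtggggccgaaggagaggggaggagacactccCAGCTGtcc
Magea13, chrX:58911211-58911460, plus strand: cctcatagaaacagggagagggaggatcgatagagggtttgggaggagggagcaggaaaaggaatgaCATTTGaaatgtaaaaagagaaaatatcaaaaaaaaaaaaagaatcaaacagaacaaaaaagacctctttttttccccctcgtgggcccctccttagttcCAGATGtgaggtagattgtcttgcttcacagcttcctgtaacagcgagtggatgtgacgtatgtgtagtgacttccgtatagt
Cd55, chr1:130462745-130462994, minus strand: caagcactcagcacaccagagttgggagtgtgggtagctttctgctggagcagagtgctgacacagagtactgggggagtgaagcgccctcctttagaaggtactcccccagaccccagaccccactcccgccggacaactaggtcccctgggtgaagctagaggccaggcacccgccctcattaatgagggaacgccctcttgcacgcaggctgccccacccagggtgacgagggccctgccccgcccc
Ctrb1, chr8:111691011-111691260, minus strand: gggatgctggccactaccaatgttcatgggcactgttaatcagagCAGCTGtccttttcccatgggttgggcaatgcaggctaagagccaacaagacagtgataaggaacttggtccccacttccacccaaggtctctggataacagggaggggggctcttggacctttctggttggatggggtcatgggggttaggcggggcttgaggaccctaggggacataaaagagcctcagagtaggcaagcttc

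The stretches shared little by these letters. Ppp1r14c had 3 E-boxes (at -206, -91 and -9 from the start site), Magea13 had 2 (-183 and -83), Ctrb1 had 1 (-205) and Cd55 had 0. Of 32851 promoters of the same length, 66.2% held at least 1, with a median of 1. The form CAGCTG, a subset of CANNTG, occurred once each in Ppp1r14c and Ctrb1 and in 13.0% of all promoters. The exact letters TATAAA, searched on both strands, were in none of the 4 and in 12.4% of all. Near forms of these letters were not counted, so the presence of a TATA element was not judged. CG pairs, the sites of DNA methylation, numbered 8 in Cd55, 5 in Ppp1r14c, 5 in Magea13 and 1 in Ctrb1, against a median of 6. A match is a description of letters and not a binding site.

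Position on the chromosome was not used in the choice either. The 6 genes lie on 6 different chromosomes (10, X, 11, 1, 5 and 8, in the order Ppp1r14c, Magea13, Gprc5c, Cd55, Myo18b, Ctrb1, by RefSeq GRCm38.p6). Up to 3 tested genes were taken on each side of each gene in table order, which gave 33 neighbours, with none before Ppp1r14c. Of these, 4 were at least 2-fold lower in KO and 4 in rescue, 3 in both, and 1 was at least 2-fold higher in both. Over all genes tested the shares were 4.07% lower in KO, 3.06% lower in rescue and 2.32% lower in both. The shares higher were 5.35% in KO and 4.59% in rescue. The median log2 ratio of the neighbours was -0.04 in KO and -0.18 in rescue, against 0.00 and 0.01 over all genes tested.

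The neighbours with low ratios stood near 4 of the genes. Btbd17, the nearest tested gene before Gprc5c with 1 untested gene between them, had 55 counts in WT against 6 in KO and 1 in rescue. Its log2 ratio to WT was -3.07 for KO (interval -4.68 to -1.96) and -5.18 for rescue (-11.08 to -3.21). On the other side of Gprc5c, the immune receptor genes Cd300a (8, 0 and 1 counts) and Cd300lb (13, 0 and 0) were below the filter. Around Gprc5c, Ttyh2 (1481, 1115 and 950 counts) and Slc9a3r1 (257, 161 and 199) were within 2-fold of WT.

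Sgsm1, the second tested gene after Myo18b, had 127 counts in WT against 11 in KO and 6 in rescue, 11.3-fold and 20.8-fold below WT. Between them 2900026A02Rik had 547, 308 and 247, and the next gene, the chemerin receptor gene Cmklr1, had 51, 274 and 243, 5.47-fold and 4.86-fold above WT. The region around Myo18b thus held both lower and higher genes.

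Cxcr4, a chemokine receptor gene and the nearest tested gene before Cd55 with 9 untested genes between them, had 213, 65 and 68 counts, 3.22-fold and 3.07-fold below WT, while Pfkfb2 on the other side had 237, 243 and 195. Fgf13, the gene after Magea13, had 28 counts in WT against 5 in KO and 27 in rescue. Near Ppp1r14c and Ctrb1 no tested neighbour reached 2-fold. The nearest tested genes to Ctrb1 were Zfp1 (131, 122 and 92 counts) and Bcar1 (1525, 941 and 972), and the nearest to Ppp1r14c was Mthfd1l (753, 870 and 890).

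**Figure D3:**
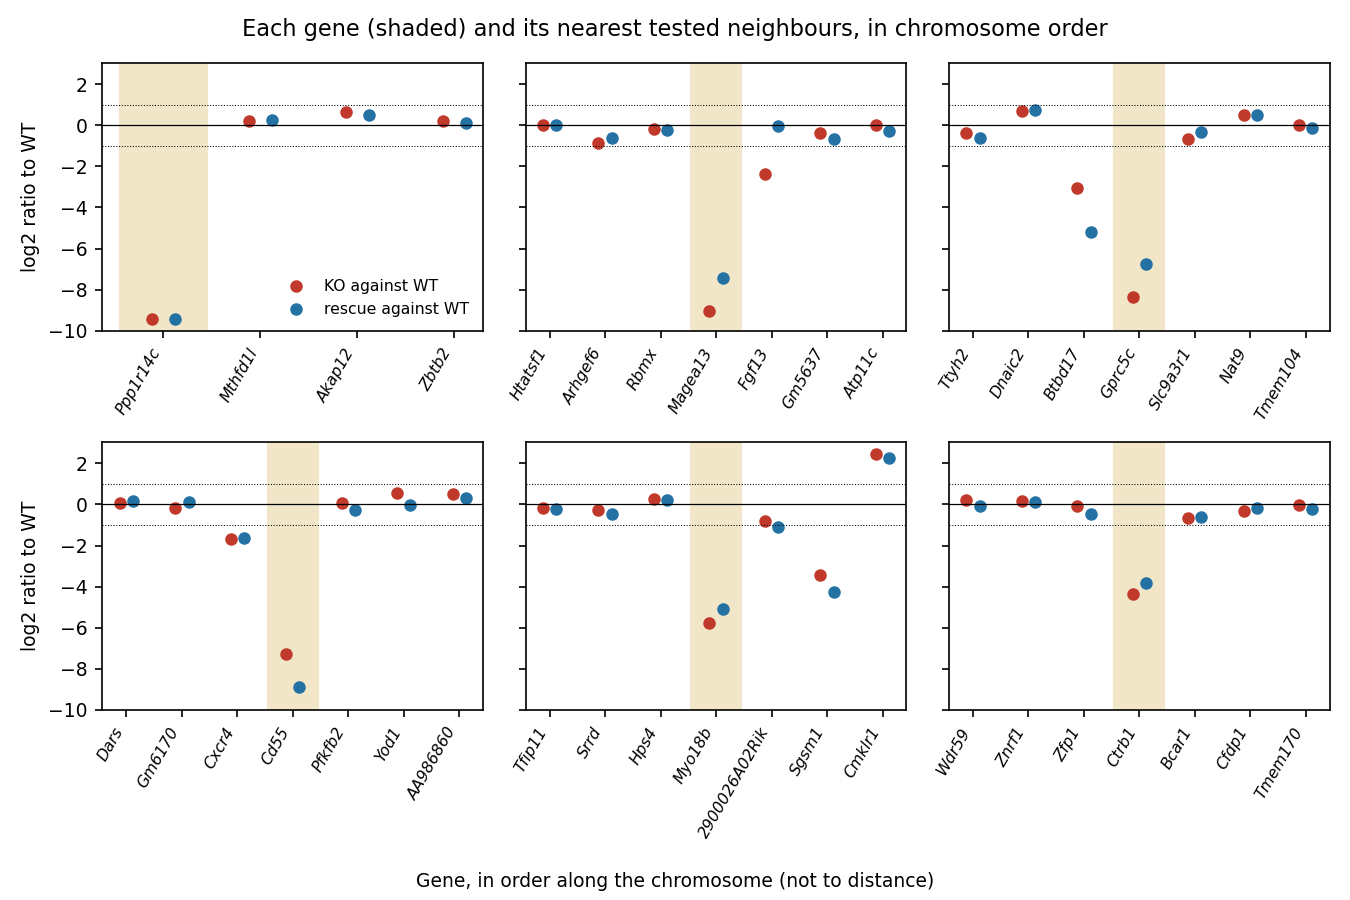
Log2 ratio to WT in KO (red) and rescue (blue) for each of the 6 genes (shaded) and its nearest tested neighbours, in chromosome order and not to distance; 0.5 was added to each count and dotted lines mark 2-fold. Btbd17 near Gprc5c, Sgsm1 near Myo18b and Cxcr4 near Cd55 are low in both libraries, and the neighbours of Ppp1r14c and Ctrb1 lie within 2-fold.

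The relatives of each gene were followed in 8 lists that leave the 6 genes out. For Ppp1r14c, 2 of 3 family members were tested. Ppp1r14b, the widely expressed inhibitor PHI-1, had 3654 counts in WT against 2091 in KO and 2542 in rescue. Ppp1r14a, the smooth muscle inhibitor CPI-17, had 4, 21 and 20, 5.34-fold and 5.10-fold above WT on few reads (log2 ratio in KO 2.28, interval 0.85 to 4.42). At 151 TPM in WT, Ppp1r14b was the predominant family member per length beside the 4.82 TPM of Ppp1r14c, and it was still present in KO and rescue.

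In the list of protein phosphatase 1 and myosin light chain phosphorylation, 20 of 24 genes were tested. In KO 2 were at least 2-fold lower and 1 higher, and in rescue 1 lower and 2 higher. Of all genes tested, 4.07% were lower and 5.35% higher in KO, and 3.06% lower and 4.59% higher in rescue. The median log2 ratio was -0.16 in KO and -0.12 in rescue. The catalytic subunits, on which KEPI acts, stayed within 2-fold: Ppp1ca had 5799, 5070 and 5618 counts, Ppp1cb 3346, 4149 and 3997, and Ppp1cc 1355, 1164 and 1178. Mylk, the smooth muscle and nonmuscle myosin light chain kinase, had 148, 1177 and 777 counts, 8.09-fold and 5.35-fold above WT. Mylk2, the skeletal muscle kinase, had 376, 163 and 246, and Ppp1r3a, which targets the phosphatase to glycogen in muscle, had 32, 3 and 7.

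Of the MAGE list, 7 of 25 genes were tested and 10 had 0 counts in all 3 libraries. Both tested Magea genes lay below WT in both libraries, and they were the 2 of 7 that reached 2-fold. The share of all genes tested that were at least 2-fold lower was 4.07% in KO and 3.06% in rescue. Magea8 had 205 counts in WT against 25 in KO and 34 in rescue, 8.06-fold and 5.91-fold below WT. Magea3 had 36, 8 and 4, and Magea6, below the filter, had 24, 0 and 0. Counts of Magea3 and Magea6 are uncertain because Magea genes can have near-identical copies. The broadly expressed MAGE genes were within 2-fold: Maged1 had 11160, 11630 and 12460 counts, Maged2 1005, 1096 and 1148, Magee1 237, 267 and 257, and Nsmce3, a subunit of the SMC5/6 complex, 491, 622 and 681. The list also holds Trim28, an E3 ligase partner of MAGE proteins and no MAGE gene itself, with 2656, 2431 and 2311. The median of the 7, Trim28 included, was 0.08 in KO and 0.14 in rescue.

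For Gprc5c, 5 of 21 class C receptor genes were tested. Gprc5a had 532, 362 and 422 counts and Gprc5b 1627, 2092 and 1834, both within 2-fold, and Gprc5d had 0, 1 and 3. The 1 gene past 2-fold in KO was Tas1r1, a taste receptor subunit, with 39 counts in WT against 7 in KO and 23 in rescue. In rescue 0 were past 2-fold by log2 ratio, with Gpr179 at the edge (33, 28 and 16 counts, -0.993). Of all genes tested, 4.07% were lower and 5.35% higher in KO, and 3.06% lower and 4.59% higher in rescue. Gprc5a and Gprc5b thus kept their reads in KO and rescue, while Gprc5d had too few reads to judge. As Gprc5c was chosen for its loss, no contrast is drawn with them.

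For Cd55, 7 of 16 complement regulators were tested, with 1 at least 2-fold lower and 2 higher in KO and 1 lower and 0 higher in rescue. The shares of all genes tested were 4.07% lower and 5.35% higher in KO, and 3.06% lower and 4.59% higher in rescue. Serping1, the C1 inhibitor, had 701, 177 and 259 counts, 3.89-fold and 2.65-fold below WT. Cd93, a membrane protein of the list, had 21, 51 and 41 counts, 2.47-fold above WT in KO. Membrane regulators within 2-fold included 3 with these values: Cr1l, the mouse regulator Crry, had 720, 597 and 616 counts, Cd59a 133, 215 and 220, and Cd46 48, 68 and 82. The list median was 0.57 in KO and 0.75 in rescue.

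Among complement components 9 of 21 genes were tested, of which 0 were at least 2-fold lower in KO, 4 higher in KO and 3 higher in rescue, beside 5.35% and 4.59% of all genes tested that were higher. C1s1, a protease of the C1 complex, had 215, 1188 and 851 counts, 5.62-fold and 4.04-fold above WT, and its partner C1ra 186, 521 and 464. Cfb, factor B of the alternative pathway, whose convertase CD55 disassembles, had 72, 337 and 349 counts, 4.76-fold and 4.94-fold above WT. The central component C3 had 1, 5 and 1. The lectin pathway protease gene Masp1, the most abundant of the tested components by count, was within 2-fold (1967, 2450 and 2153). The list medians were 0.77 and 0.73.

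For Myo18b, 12 of 22 unconventional myosins were tested, with 1 lower and 1 higher by 2-fold in each of KO and rescue. Among all genes tested, 4.07% were lower and 5.35% higher in KO, and 3.06% lower and 4.59% higher in rescue. Myo18a, its nearest relative and a gene of many tissues, had 6144 counts in WT against 7017 in KO and 6490 in rescue. Myo7b, of epithelial brush borders, had 46, 13 and 18, and Myo1d 74, 202 and 193. The median was 0.09 in KO and -0.10 in rescue. Since Myo18b was chosen for its loss, its distance from the myotube markers is no separate result. Of the 10 markers, Actn2 (176, 31 and 89 counts) and Ckm (4406, 1424 and 3527) were at least 2-fold lower in KO and 0 were in rescue. The shares over all genes tested were the 4.07% and 3.06% given above. Ttn had 20493, 20245 and 18268. The part of these markers in the Myo18b result was not tested.

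For Ctrb1, 1 of 23 digestive enzyme genes was tested and 16 had 0 counts throughout. That gene was Cela1, an elastase that is also made outside the pancreas, with 197, 103 and 120 counts. Of the 5 acinar markers, Pnlip and Ctrc were at 0 in all 3 libraries, Prss2 had 0, 5 and 6 counts, and Cpa1 had 14, 11 and 6, with sums of 211 in WT, 119 in KO and 132 in rescue. Ctrb1 RNA was thus present in WT while 4 of the 5 acinar markers had 14 counts or fewer in every library, the exception being Cela1.

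**Figure D4:**
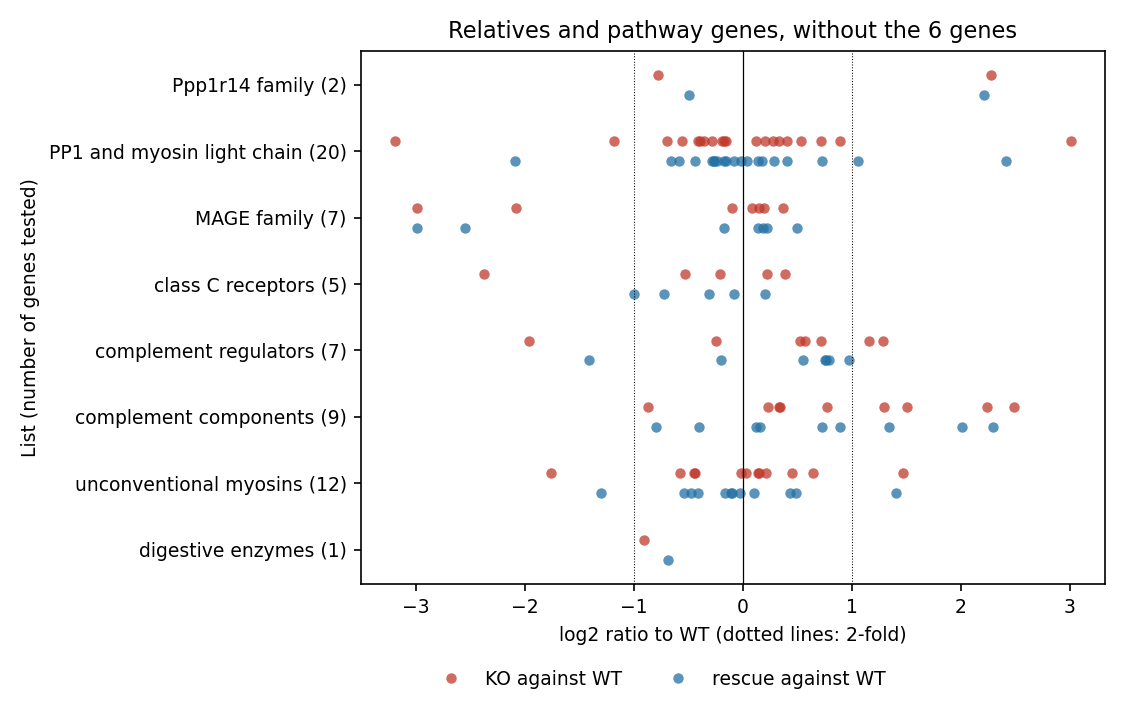
Log2 ratio to WT in KO (red) and rescue (blue) for the tested genes of the 8 lists of relatives and pathway genes (number tested in brackets), with dotted lines at 2-fold; each point is 1 gene and the 6 genes are left out. Most relatives lie within 2-fold. Past 2-fold in both libraries, Ppp1r3a, Magea8, Magea3, Serping1 and Myo7b are low, and Ppp1r14a, Mylk, C1ra, C1s1, Cfb and Myo1d are high.

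To find genes of the same pattern, the higher of the 2 log2 ratios to WT over the 3 libraries was taken as the measure, so that a gene scores low only if both libraries are low. Among 8628 named genes with at least 200 WT counts, Ppp1r14c, Magea13, Cd55 and Gprc5c held the lowest 4 places, at -9.42, -7.45, -7.29 and -6.76. Myo18b was at place 6 (-5.09) and Ctrb1 at place 9 (-3.80), and the median was 0.05. The measure uses the values that chose the 6, so their places are a description, and the order among the lowest depends on the count added: with 3 added to each count, the values were -6.85 for Ppp1r14c, -6.13 for Gprc5c, -6.05 for Magea13 and -5.89 for Cd55. Among the 10 closest genes outside the 6 were, in order, Pdgfd, Pnmal2, Trdn, Endod1, Heyl, Mfsd6, Ly6c2, Mybpc1 and Hmcn1.

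Pdgfd, a platelet-derived growth factor, lay between Gprc5c and Myo18b at -6.21, with 416 counts in WT against 2 in KO and 5 in rescue. Pnmal2 lay just below Myo18b with 212, 3 and 7 (-4.80). Trdn, which encodes triadin of the junctional sarcoplasmic reticulum, had 663, 10 and 37 (-4.12), and Endod1, the next after Ctrb1, had 213, 19 and 18 (-3.43). Heyl, a Notch target, had 622, 64 and 58 counts (-3.25). Mfsd6 had 389, 42 and 45, Ly6c2 had 680, 60 and 83, and the matrix protein gene Hmcn1 had 284, 35 and 24. Mybpc1, slow myosin binding protein C, had 223, 2 and 27, so that rescue was 8.10-fold below WT and the log2 ratio of KO to WT was -6.46 (interval -9.83 to -4.91).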

How the data were processed

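RNA of 3 libraries of differentiated C2C12 cells was analysed, 1 per group, so grouping followed the genotype label. The submitters' processing notes name featureCounts 2.0.0, HISAT2 2.2.1 and cutadapt 1.9.1, and the build GRCm39 (mm39). Their settings, strand included, are not stated in these sources. The deposited count column holds whole numbers per RefSeq transcript row, with no normalization, per the file headers (139023 rows of 46316 symbols). The RPKM column deposited by the authors is the count corrected for row length and for the library's total, and the TPM column deposited by the authors is the length-corrected count brought to the same total in each library. Recomputed values differed from these by at most 4.98e-06 and 4.40e-06.

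Each gene was represented by its row with most counts, summed over libraries. TMM factors came from edgeR 4.0.16 (R 4.3.3), 0.5 was added for log2 ratios, and 13381 genes with a mean of 1 CPM or more were tested against a 2-fold threshold. With 1 library per group no p-value, SD or SE was computed. Folds are ratios of scaled counts without the added 0.5, and a count of 0 was set to 3 for a bound. The ratio computation was tested on simulated data. Members, lists and tests were chosen with earlier results of these data known. Genes named are the 6, the 10 most similar with 200 or more WT counts and a named symbol, the list genes past 2-fold (up to 6 a list, by count), neighbours, and others added after their values were seen, except that a few are not reported here. Lists held 197 entries, including 9 marker lists. Neighbours follow table order within the RefSeq GRCm38.p6 chromosome, which was known for 13304 of 13381 genes. Alternatives were DESeq2 1.42.0 size factors, total counts, summed rows, the second row, 3 added counts and no filter.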

Additional observations from a re-analysis of the deposited data

How the results depend on the processing

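No replicate exists to leave out, and no paired analysis was possible because each group has 1 library. Under DESeq2 size factors, total gene counts, the sum over all rows, the row with the second highest total (where a gene has one) and 3 added to each count, 84 alternative ratios of the 6 genes were computed. Several of the genes' counting intervals are open at an end because of counts of 0, so lying within them shows no stability. The 56 ratios against WT ran from -12.05 to -3.73 on the log2 scale, and 56 were at least 10-fold lower. Counts over all genes depended on the filter: with none, 3606 genes were at least 2-fold lower in KO, 3292 in rescue and 129 at least 10-fold lower in both, beside 544, 410 and 37 with it. Under the other alternatives the last count ran from 26 (3 added to each count) to 39 (DESeq2 size factors, and total gene counts). Depth limits the 4 genes with under 5 counts in KO and rescue, for which a fold beyond the bound or interval given cannot be resolved.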

Other observations

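The 37 genes at least 10-fold below WT in both KO and rescue included other muscle genes, named here after their values were seen. Ano5, a membrane protein of muscle whose loss causes limb-girdle muscular dystrophy, had 175 counts in WT against 3 in KO and 3 in rescue (log2 ratios -5.62 and -5.62). Rbm24, a splicing regulator of striated muscle, had 81, 0 and 3. Cav3, muscle caveolin, had 160, 2 and 4. Sox2, a transcription factor of stem and neural cells, had 46 counts in WT and 0 in both others, as did the X-linked gene Prrg1 with 47.

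By chromosome, the share of tested genes at least 2-fold below WT in both libraries ran from 1.45% (chromosome 19) to 4.02% on X, where 18 of 448 genes did so, beside 2.32% over all. The 18 included Magea13 and Magea8. The 37 genes at least 10-fold lower in both were 0.277% of all genes tested. Of them, 7 of 834 tested lay on chromosome 5, Myo18b and its near neighbour Sgsm1 among them. Chromosome 9 held 4 of 723 tested and X held 4 of 448, Magea13 among the latter. These chromosomes were named after their values were seen, and the counts include genes chosen for this loss, so no clustering is read from them.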
